A study of Saccharomyces cerevisiae with 15 samples.

Results

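Budding yeast cells that overproduced the human kinase IRAK2 were compared with cells that overproduced active human IRAK4. The comparison took the 3 arrays labelled as IRAK2-overexpressing cells and the 3 labelled as IRAK4-overexpressing cells, which are 6 of the 15 arrays of the series, and all 5449 genes that could be paired with a probe set. The remaining arrays carried the empty plasmid (Control, 3 arrays), a catalytically inactive IRAK4 called IRAK4(KD), or IRAK1. They entered the estimate of the spread, and the Control arrays are shown as a point of orientation.

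All groups were cultures of strain YPH499 with the plasmid pEG(KG), whose GAL1 promoter drives the inserted gene in galactose. Cultures grew for 18 h at 30 °C on raffinose, were diluted to an optical density of 0.3 in galactose medium and were collected after 6 h at 30 °C. By the labels, IRAK2 cells, IRAK4 cells and Control cells differed in the insert, which was IRAK2, IRAK4 or none, and each group had 3 biological replicates. The galactose shift was therefore common to all of them, and no group without induction is part of the comparison. The array holds 0 probe sets that name an IRAK gene, so neither the level of the human transcripts nor that of the proteins was measured, and a difference in dose between IRAK2 and IRAK4 cannot be told apart from a difference between the proteins.

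In human cells IRAK4 is the active serine/threonine kinase that starts signalling below Toll-like and interleukin-1 receptors, and IRAK2 is a later member of the same family that is usually classed as a pseudokinase. Yeast has neither these receptors nor IRAK genes, so the host reads the proteins out through its own programmes. Of these, Msn2 and Msn4 are the transcription factors of the general stress response, Hsf1 drives chaperone genes when proteins misfold, and the Snf1 kinase with Cat8 and Adr1 opens the genes for respiratory carbon sources when glucose is absent.

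The genes that mark the strain and the plasmid were read first. URA3, a selection marker of the plasmid, had log2 values of 13.78, 13.70 and 13.65 in IRAK2 cells, against 13.74, 13.73 and 13.69 in IRAK4 cells. LEU2, another plasmid marker, lay between 12.61 and 12.98 in both groups, and HIS3, which is deleted in the strain, lay between 3.36 and 3.65, near the low end of the scale. ADE2 and LYS2, which carry nonsense mutations in this strain, still gave transcripts. ADE2 had 8.65, 8.62 and 8.55 in IRAK2 cells against 9.53, 9.48 and 9.68 in IRAK4 cells and was called lower in IRAK2 by the test described below (-0.96 ± 0.12), while LYS2 was not called (-0.07 ± 0.09). The α-factor gene MF(ALPHA)1 lay between 2.90 and 4.25 in both groups, and the a-factor gene MFA1 lay at 9.24, 9.24 and 9.31 in IRAK2 cells and at 8.71, 8.53 and 8.58 in IRAK4 cells, as a MATa strain would have it. The galactose kinase gene GAL1 had 13.34, 13.20 and 13.14 in IRAK2 cells, 13.41, 13.46 and 13.44 in IRAK4 cells and 13.37, 13.43 and 13.40 in Control cells. Its level was thus high in all arrays of these groups. Correlations between arrays over all genes were 0.996 to 0.998 within IRAK2, 0.993 to 0.997 within IRAK4 and 0.949 to 0.959 between IRAK2 and IRAK4. The median over genes of the SD between replicates was 0.0784 log2 units in IRAK2, 0.113 in IRAK4 and 0.0869 in Control, and it was 0.181 in IRAK1, whose arrays correlated with each other at only 0.968 to 0.994.

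IRAK2 cells and IRAK4 cells differed in many genes, mostly by small amounts. A gene was called where the limma test gave an adjusted p under 0.05 (two-sided, Benjamini-Hochberg over all 5449 genes). By that rule 2770 genes (50.8%) differed, 1166 of them higher in IRAK2 (21.4%) and 1604 lower in IRAK2 (29.4%). A difference of at least 2-fold was left for 138 genes higher in IRAK2 (2.53%) and 230 lower (4.22%), and one of at least 4-fold for 15 and 37. The genes called at least 8-fold different numbered 0 higher and 8 lower in IRAK2. For 3566 genes (65.4%) the 3 IRAK2 arrays and the 3 IRAK4 arrays did not overlap, with IRAK2 higher in 1522 (27.9%) and lower in 2044 (37.5%). The median difference of all genes was -0.06 on the log2 scale, and the 25th and 75th percentiles were -0.35 and 0.24. Calls were repeated under 17 alternative settings of scaling, filter, fit or left-out arrays, and a call that was lost under some of them is marked with their number. Of the genes eligible to be named that were not called as deposited, 28 were called under at least 1 alternative, and this is marked in the same way.

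**Figure D1:**
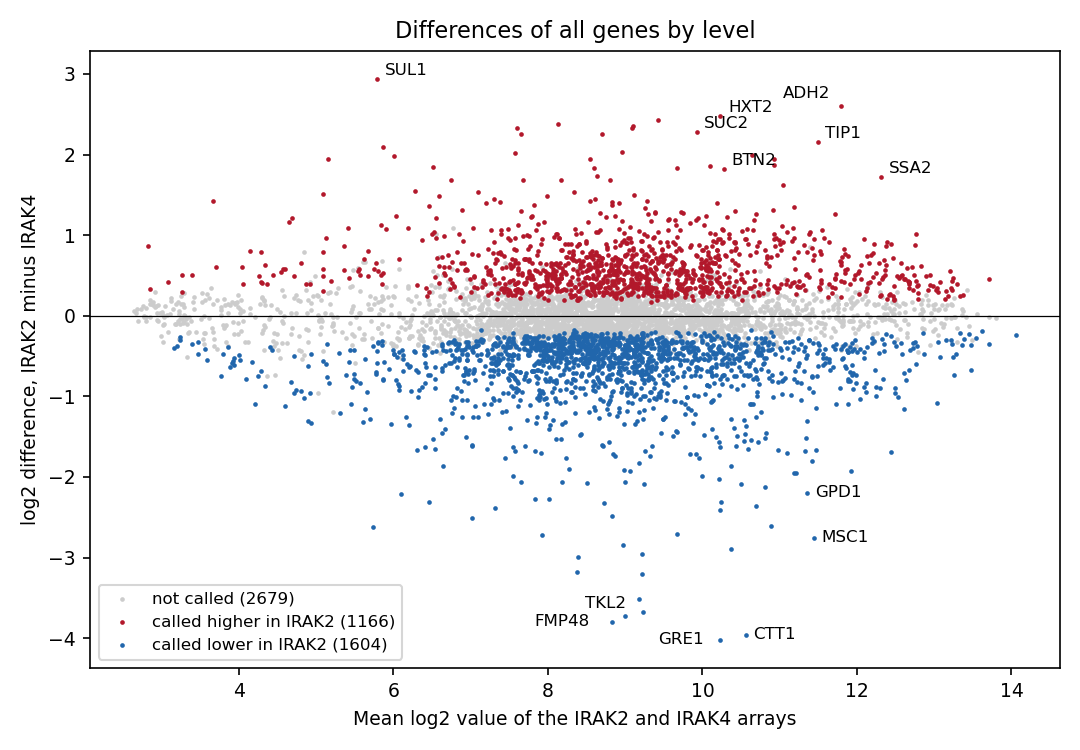
Log2 difference of each of the 5449 genes (IRAK2 minus IRAK4, vertical axis) against its mean log2 value over the 6 arrays (horizontal axis); each point is a gene, coloured by its call. The cloud reaches further down than up, to -4.02 for GRE1 against 2.94 for SUL1.

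Of the 15 genes that were lowest in IRAK2 relative to IRAK4, 11 belonged to a list of general stress genes described further on. That list held 60 of the 5449 genes, and its members were chosen with earlier results of these data known. The overlap is therefore no separate support. GRE1, a hydrophilin gene induced by osmotic stress, had 8.01, 8.41 and 8.24 in IRAK2 cells, 12.23, 12.28 and 12.20 in IRAK4 cells and 7.91, 8.55 and 8.68 in Control cells. Its IRAK2 arrays lay in the range of Control and far below all IRAK4 arrays, a difference of -4.02 ± 0.64 (SE, adjusted p = 0.000138), which is 16.2-fold lower. CTT1, the cytosolic catalase, read 8.47, 8.66 and 8.61 in IRAK2 cells, 12.52, 12.49 and 12.60 in IRAK4 cells and 8.89, 9.11 and 8.94 in Control cells. Here every IRAK2 array was below every Control array as well, and the difference from IRAK4 was -3.96 ± 0.15 (15.5-fold lower, adjusted p = 4.6e-10). The IRAK1 arrays, which enter the pooled spread, read 9.31, 12.93 and 12.44 for GRE1, and its standard error was the wider of these.

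FMP48, a mitochondrial protein with a kinase domain, had 6.81, 6.89 and 7.07 in IRAK2 cells, against 10.75, 10.72 and 10.71 in IRAK4 cells (-3.80 ± 0.16, 14.0-fold lower, adjusted p = 5.03e-10). FMP45, a membrane protein of the eisosome domains, had 7.24, 6.89 and 7.29 in IRAK2 cells, against 10.80, 10.94 and 10.86 in IRAK4 cells (-3.73 ± 0.16). TKL2, the minor transketolase, had 7.52, 7.34 and 7.31 in IRAK2 cells, against 11.03, 11.01 and 11.17 in IRAK4 cells (-3.68 ± 0.22). In all of these the groups were apart by over 3 log2 units with replicates that lay close together. The next were RTN2, a reticulon-like protein of the endoplasmic reticulum (-3.52 ± 0.22), RTC3 (-3.20 ± 0.22), the minor 6-phosphogluconate dehydrogenase GND2 (-3.18 ± 0.32), the unnamed reading frame YNR014W (-2.99 ± 0.38), PHM7 (-2.96 ± 0.23), the glutamate decarboxylase GAD1 (-2.89 ± 0.17) and HBT1 (-2.85 ± 0.21). MSC1, the minor plasma membrane proton pump PMA2 and the minor 6-phosphogluconolactonase SOL4 closed the 15 lowest, at -2.76 ± 0.10, -2.72 ± 0.28 and -2.71 ± 0.13.

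The genes that were highest in IRAK2 relative to IRAK4 were led by SUL1, ADH2 and HXT2. SUL1, a high-affinity sulfate permease, had 7.63, 6.76 and 7.41 in IRAK2 cells, 4.43, 4.40 and 4.12 in IRAK4 cells and 7.05, 7.65 and 8.13 in Control cells. Among these groups the IRAK4 arrays lay lowest and the IRAK2 arrays overlapped with Control. The SUL1 difference between IRAK2 and IRAK4 was 2.94 ± 0.24 (7.7-fold higher, adjusted p = 2.66e-07). The IRAK4(KD) arrays lay lower still, at 3.59, 3.88 and 3.76. Values this near the low end of the scale may stand for an absent transcript, so the fold is uncertain. ADH2, the alcohol dehydrogenase that feeds ethanol into respiration, had 13.31, 12.83 and 13.14 in IRAK2 cells, 10.60, 10.51 and 10.35 in IRAK4 cells and 13.29, 13.55 and 13.64 in Control cells (2.60 ± 0.12, 6.08-fold higher, adjusted p = 1.32e-09). HXT2, a high-affinity hexose transporter, had 11.79, 11.20 and 11.42 in IRAK2 cells, against 9.56, 8.39 and 9.02 in IRAK4 cells (2.48 ± 0.29, 5.58-fold higher, adjusted p = 8.02e-06). The HXT2 replicates were spread over more than 1 log2 unit in IRAK4, yet its lowest IRAK2 array exceeded its highest IRAK4 array.

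REG2, a regulatory subunit of the protein phosphatase Glc7 in glucose repression, had 9.35, 9.25 and 9.37 in IRAK2 cells, 7.05, 6.68 and 7.10 in IRAK4 cells and 8.31, 8.35 and 8.48 in Control cells. Its IRAK2 arrays all lay above Control and its IRAK4 arrays all below, and the difference from IRAK4 was 2.38 ± 0.10. SUC2, the invertase that splits sucrose and raffinose, had 11.01, 11.18 and 11.01 in IRAK2 cells, 9.03, 8.76 and 8.58 in IRAK4 cells and 10.90, 10.66 and 10.63 in Control cells (2.28 ± 0.11, 4.84-fold higher). The acetate transporter ADY2 differed by 2.36 ± 0.20 and the methylisocitrate lyase ICL2 by 2.33 ± 0.34. Further down the 15 highest were the phosphate transporter PHO84 (2.25 ± 0.60), the mannoprotein TIP1 (2.16 ± 0.11), the formate dehydrogenase FDH1 (2.02 ± 0.33) and RGI2, a gene of respiratory energy metabolism (2.03 ± 0.18). The unnamed reading frame YKL068W-A (2.33 ± 0.18) and the genes YIG1 (2.26 ± 0.16) and CSM4 (2.09 ± 0.20) also stood among them.

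**Figure D2:**
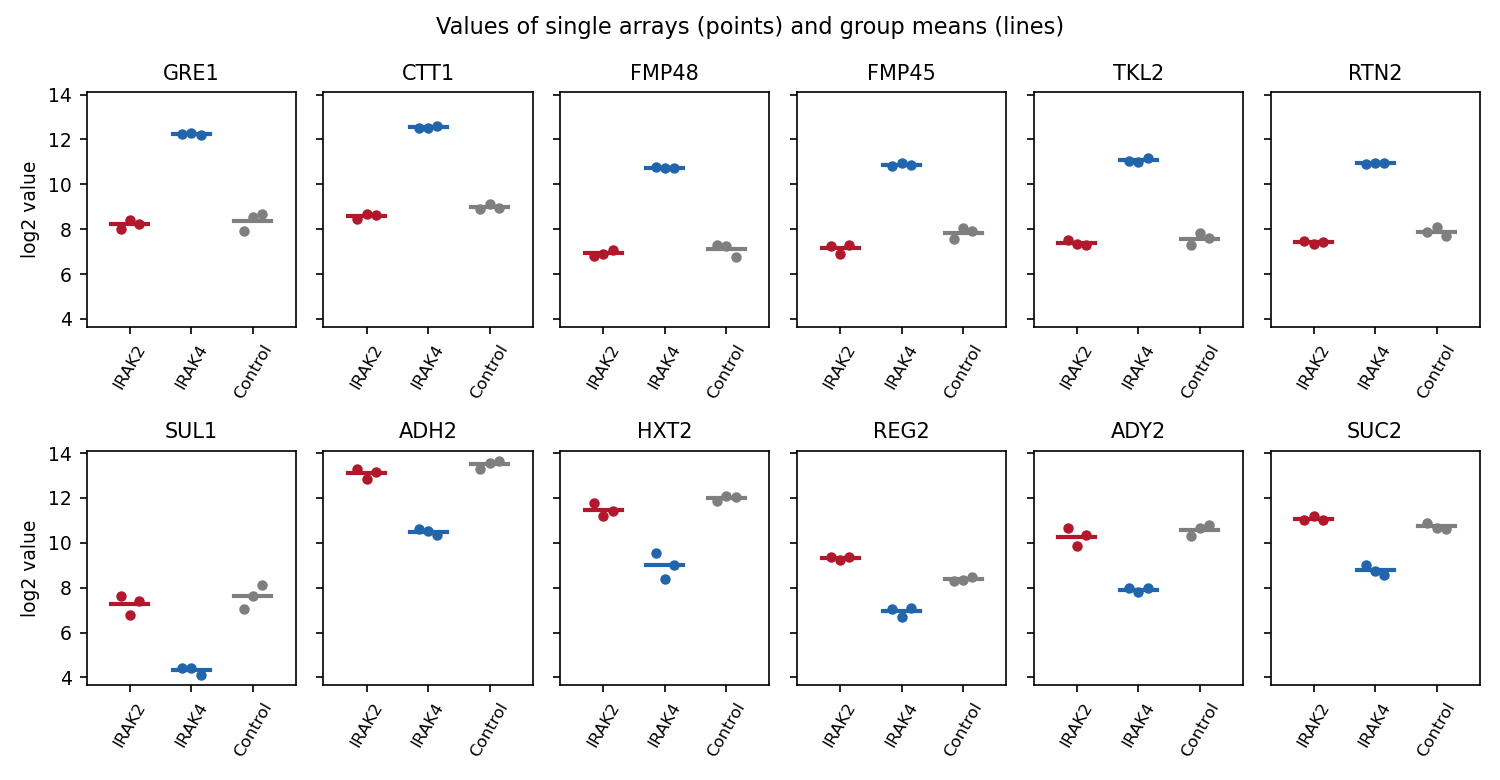
Log2 values of single arrays (points) and group means (lines) of 12 genes in IRAK2, IRAK4 and Control cells. In the upper row (GRE1, CTT1, FMP48, FMP45, TKL2, RTN2) the 3 IRAK4 arrays stand above the other groups, and in the lower row (SUL1, ADH2, HXT2, REG2, ADY2, SUC2) they stand below them.

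Set against Control, the IRAK4 arrays of these genes lay farther away than the IRAK2 arrays. CTT1 was 0.40 below Control in IRAK2 cells on the log2 scale (a difference of -0.40) and 3.56 above it in IRAK4 cells. TKL2 differed from Control by -0.19 in IRAK2 and by 3.49 in IRAK4, and ADH2 by -0.40 in IRAK2 and by -3.01 in IRAK4. The differences from Control share the Control arrays and are given as values without a test.

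The targets of Msn2 and Msn4 were lower in IRAK2 than in IRAK4 almost throughout. Of 60 measured genes of a general stress list, 52 were called lower in IRAK2 and 3 higher, with 42 at least 2-fold lower, and the list median was -1.50 beside -0.06 over all genes. The median difference of the list from Control was -0.15 in IRAK2 and 1.11 in IRAK4. HSP26, a small heat shock protein, had 10.37, 10.46 and 10.63 in IRAK2 cells, 12.32, 12.10 and 12.08 in IRAK4 cells and 9.90, 10.03 and 10.13 in Control cells (-1.68 ± 0.23, adjusted p = 2.98e-05). Its IRAK2 arrays lay between Control and IRAK4 with no overlap on either side. HSP12, a membrane-protecting stress protein near the top of the scale, had 13.54, 13.50 and 13.55 in IRAK2 cells and 13.91, 13.95 and 13.78 in IRAK4 cells (-0.35 ± 0.07, adjusted p = 0.00148).

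The 3 members that were called higher were named after their values were seen, as were the other genes below that make up a count of 5 or fewer. They were MPC3, a subunit of the mitochondrial pyruvate carrier (1.04 ± 0.12), MRK1, a glycogen synthase kinase homologue (0.55 ± 0.10), and TMA10 (0.40 ± 0.16). The call of TMA10 was lost under 6 of the 17 alternative settings. HXK1, a hexokinase, and PBI2, an inhibitor of vacuolar protease B, differed by 0.13 ± 0.11 and -0.01 ± 0.09 and were not called, although PBI2 was called lower with the gene length trend described further on removed (-0.37). The genes of the regulators themselves were lower in IRAK2 too, with MSN2 at 8.29, 8.35 and 8.26 in IRAK2 cells against 9.06, 9.06 and 9.26 in IRAK4 cells (-0.83 ± 0.12) and MSN4 at 7.85, 7.84 and 7.83 against 8.74, 8.78 and 8.83 (-0.94 ± 0.08).

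Reserve carbohydrate genes were lower in IRAK2 too, but some of them had already been counted in the stress list. These are TPS1, TPS2, TSL1 and NTH1 of trehalose and GSY2, GLC3, GPH1, GDB1, GAC1 and IGD1 of glycogen metabolism. Lists described below share TKL2, GND2, SOL4, NQM1, TFS1, PAI3, FMP45, SDP1 and others with the stress list. The counts of such lists are therefore not separate results. All 8 measured genes of trehalose metabolism were called lower in IRAK2, with a median of -1.36. TPS1, the trehalose-6-phosphate synthase, had 10.35, 10.25 and 10.12 in IRAK2 cells, 12.05, 12.09 and 12.41 in IRAK4 cells and 10.76, 10.74 and 10.47 in Control cells (-1.95 ± 0.14, 3.85-fold lower). The phosphatase TPS2 (-1.99 ± 0.14), the regulatory subunit TSL1 (-2.09 ± 0.13) and UGP1, which makes UDP-glucose (-1.52 ± 0.13), were lower too, and so was the trehalase NTH1, which degrades the sugar (-1.20 ± 0.12). The list thus held genes of synthesis and of breakdown on the same side.

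Of 13 genes of glycogen metabolism 11 were called lower in IRAK2 and 0 higher (median -1.07). GSY2, the main glycogen synthase, had 9.04, 9.08 and 9.08 in IRAK2 cells, 10.75, 10.76 and 10.99 in IRAK4 cells and 9.52, 9.63 and 9.41 in Control cells (-1.77 ± 0.12). The branching enzyme GLC3 (-1.54 ± 0.10), the phosphorylase GPH1 (-1.37 ± 0.10) and IGD1, an inhibitor of debranching (-1.28 ± 0.10), were lower as well. GLC8 (0.13 ± 0.13) and PIG1 (-0.03 ± 0.09), both regulators of the phosphatase Glc7, were not called.

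**Figure D3:**
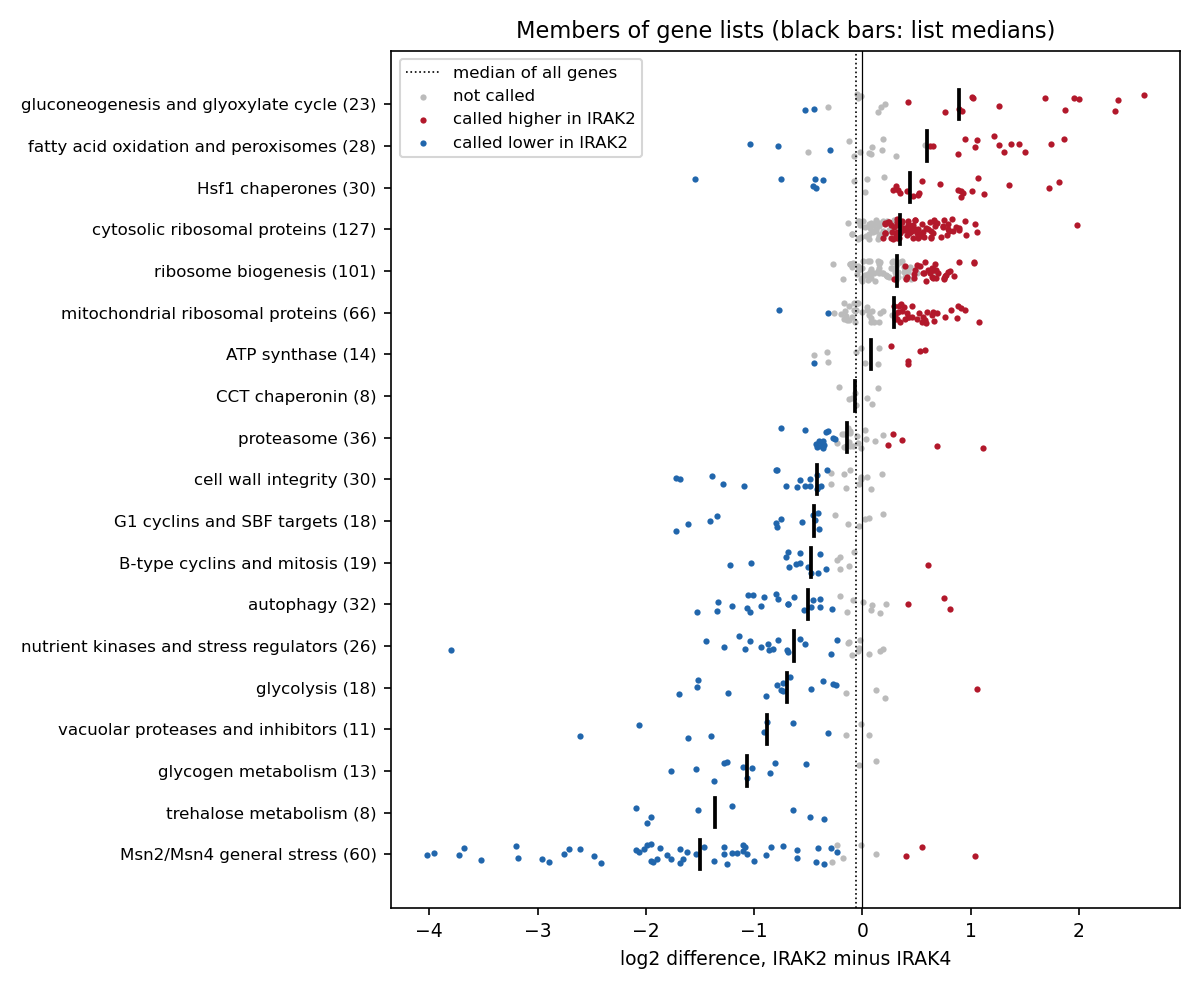
Log2 difference (IRAK2 minus IRAK4, horizontal axis) of the measured members of 19 gene lists, 1 point per gene coloured by its call, with black bars for list medians and a dotted line for the median of all genes. The list medians run from -1.50 for the Msn2/Msn4 targets to 0.89 for gluconeogenesis and the glyoxylate cycle.

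Glycolysis and the pentose phosphate pathway differed most in their minor isoenzymes. Of 18 glycolysis genes 14 were called lower in IRAK2 and 1 higher (median -0.70). The enolase ENO1 had 11.57, 11.59 and 11.62 in IRAK2 cells against 13.28, 13.34 and 13.24 in IRAK4 cells (-1.69 ± 0.15), while its paralog ENO2 had 13.23, 13.23 and 13.20 against 13.36, 13.40 and 13.36 and was not called (-0.15 ± 0.07, called lower under 3 of 17 alternatives). The pyruvate kinase PYK2 differed by -1.24 ± 0.16 and the main form CDC19 by -0.67 ± 0.07. The glyceraldehyde-3-phosphate dehydrogenase TDH1 differed by -1.52 ± 0.25 and the main form TDH3 by -0.24 ± 0.07, a call lost under quantile normalization.

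In the pentose phosphate pathway 7 of 11 genes were called lower and 1 higher (median -0.41). TKL2, GND2, SOL4 and the transaldolase paralog NQM1 (-2.41 ± 0.15) were at least 2-fold lower. Their paralogs TKL1 (-0.34 ± 0.10) and TAL1 (-0.41 ± 0.13) were called lower, with calls lost under 1 and 3 of 17 alternatives, and GND1 (0.24 ± 0.20) and SOL3 (-0.21 ± 0.15) were not called. GND1 was called higher under 4 of 17 alternatives, namely array weights, the 6 arrays alone, their replicate block, and without IRAK1 replicate 1. SOL3 was called lower without IRAK1 replicate 1. The gene called higher was RKI1, the ribose-5-phosphate isomerase (0.82 ± 0.21).

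The hexose kinases parted. HXK2, the hexokinase that also serves glucose repression, had 12.05, 12.14 and 12.04 in IRAK2 cells, 11.04, 10.96 and 11.05 in IRAK4 cells and 12.22, 12.04 and 11.92 in Control cells (1.06 ± 0.14, adjusted p = 2.45e-05). The glucokinase GLK1 had 11.95, 12.08 and 12.10 in IRAK2 cells, 12.95, 12.96 and 12.89 in IRAK4 cells and 12.37, 12.47 and 12.36 in Control cells (-0.89 ± 0.08, adjusted p = 7.04e-07). In the IRAK4 arrays HXK2 was thus below Control and GLK1 above it.

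Among 32 pairs of related genes, 11 had both members called lower in IRAK2, 3 had both called higher, 4 had neither called and 3 had members called in opposite directions. The opposite pairs were GLK1 and HXK2, the catalases CTT1 and CTA1, and the Hsp70 genes SSA3 and SSA1. CTA1, the peroxisomal catalase, had 9.64, 9.21 and 9.68 in IRAK2 cells, 7.78, 7.84 and 7.70 in IRAK4 cells and 9.76, 10.14 and 10.25 in Control cells (1.74 ± 0.18), where CTT1 was 15.5-fold lower. Beyond carbon use, COX5B, the alternative subunit 5 of cytochrome oxidase, differed by -1.40 ± 0.13 and COX5A by -0.34 ± 0.08. The remaining 11 pairs had 1 member called.

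**Figure D4:**
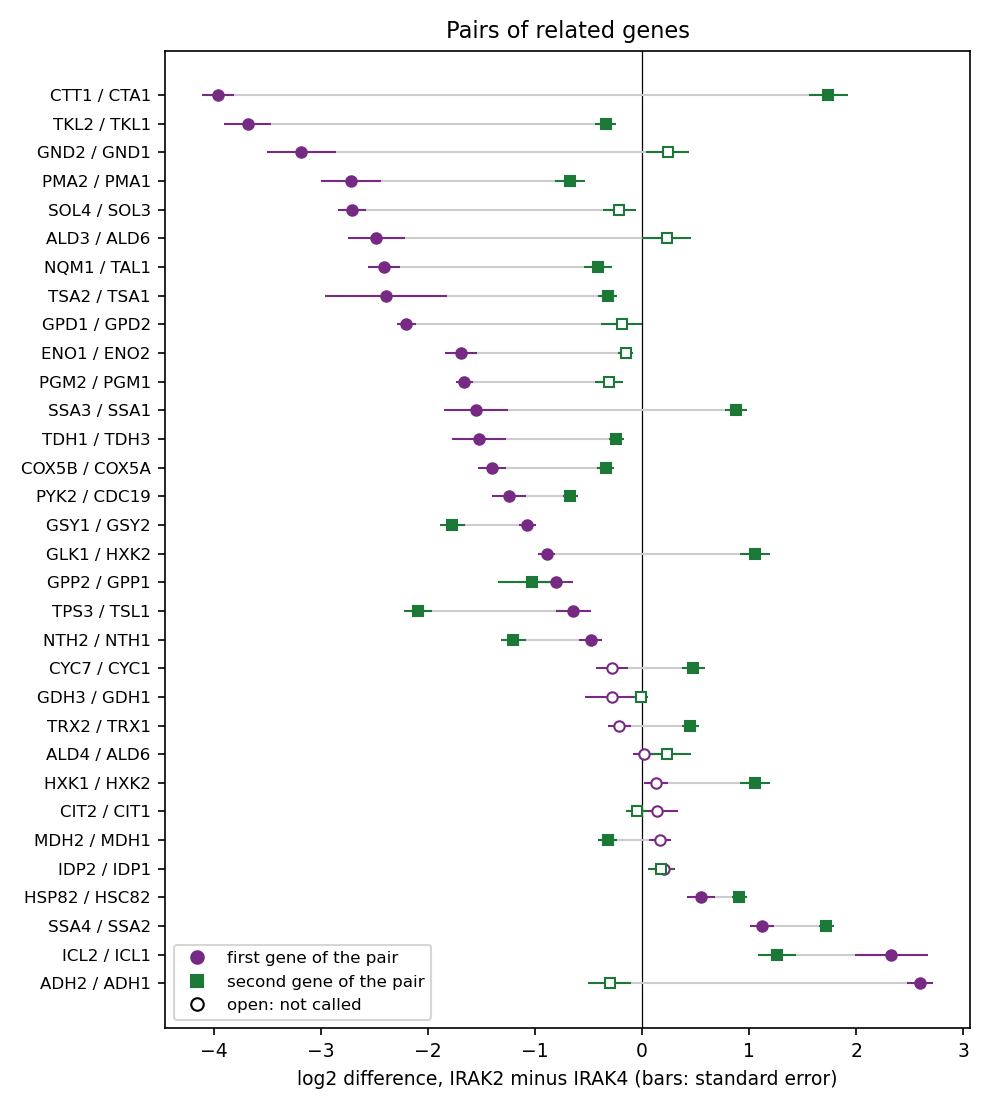
Log2 difference (IRAK2 minus IRAK4, horizontal axis) of both genes of 32 pairs, circles for the gene named first and squares for the gene named second, with bars for the standard error and open symbols for genes not called. CTT1 and CTA1 lie at -3.96 and 1.74, the widest opposite pair.

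Genes for growth on acetate, ethanol and fatty acids were higher in IRAK2 than in IRAK4. The list of gluconeogenesis and the glyoxylate cycle held 23 measured genes, of which 14 were called higher and 2 lower, 10 of them at least 2-fold higher, with a median of 0.89. The median difference of this list from Control was -0.13 in IRAK2 and -0.62 in IRAK4. Besides ADH2, ADY2 and ICL2, the list held PDH1, a methylcitrate pathway gene, with 11.71, 11.49 and 11.73 in IRAK2 cells against 9.78, 9.68 and 9.47 in IRAK4 cells (2.00 ± 0.26). ICL1, the isocitrate lyase of the glyoxylate cycle, had 12.34, 12.37 and 12.33 in IRAK2 cells, 11.15, 10.95 and 11.15 in IRAK4 cells and 12.36, 12.17 and 12.15 in Control cells (1.26 ± 0.18). The 2 called lower were PYC1, a pyruvate carboxylase (-0.53 ± 0.10), and the acetyl-CoA hydrolase ACH1 (-0.45 ± 0.12).

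Peroxisomes and fatty acid oxidation gave 28 measured genes, of which 14 were called higher and 3 lower (median 0.60). CRC1, the mitochondrial carnitine carrier, had 11.02, 11.04 and 11.05 in IRAK2 cells, 9.31, 9.13 and 9.08 in IRAK4 cells and 10.73, 10.74 and 10.85 in Control cells (1.86 ± 0.29). The acyl-CoA synthetase FAA2 (1.50 ± 0.22) and PXA1, a subunit of the peroxisomal fatty acid transporter (1.45 ± 0.12), were also over 2-fold higher. The 3 called lower were FAA1, the main acyl-CoA synthetase for imported fatty acids (-0.78 ± 0.09), and the peroxisomal import factors PEX18 (-1.04 ± 0.13) and PEX7 (-0.30 ± 0.10, call lost under 6 of 17 alternatives).

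Hexose transporter genes went with this group in part. Of 14 measured, 6 were called higher in IRAK2 and 1 lower. HXT4, induced by low glucose, had 10.70, 10.51 and 10.54 in IRAK2 cells against 8.98, 8.50 and 8.79 in IRAK4 cells (1.83 ± 0.12). The transporter called lower was HXT5, a gene of slow growth, with 9.88, 9.63 and 9.77 in IRAK2 cells against 11.36, 11.38 and 11.48 in IRAK4 cells (-1.65 ± 0.16). HXT7, a high-affinity transporter, was not called (-0.07 ± 0.17). Among 20 genes of glucose sensing and repression 3 were higher (REG2, SUC2 and the sensor SNF3 at 0.19 ± 0.08, lost under 6 of 17 alternatives) and 6 lower, with 5 higher without IRAK4 replicate 1. The shares of all genes were 21.4% higher and 29.4% lower. The G protein GPA2, which acts on the cAMP pathway, differed by -1.01 ± 0.09 and SNF1, the kinase of glucose derepression, by -0.69 ± 0.10.

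Some of the galactose genes themselves were slightly lower in IRAK2. Of 9 measured genes of the pathway 5 were called lower and 0 higher. Those called lower were GAL1, GAL2, GAL7, PGM2 and GCY1, and GCY1 is also in the list of glycerol metabolism and osmotic stress described further on. GAL7, the uridylyltransferase, had 12.81, 12.85 and 12.81 in IRAK2 cells against 13.31, 13.35 and 13.34 in IRAK4 cells (-0.51 ± 0.06), and the permease GAL2 differed by -0.47 ± 0.08. GAL1 differed by -0.21 ± 0.07, a call lost under 6 of 17 alternatives, and GAL10 (-0.16 ± 0.07), GAL80 (-0.22 ± 0.10) and GAL3 (0.01 ± 0.13) were not called. GAL10 and GAL80 were called lower under 4 of 17 alternatives each. PGM2, the phosphoglucomutase that links galactose to glycolysis and is also a stress gene, differed by -1.66 ± 0.08. The plasmids share the GAL1 promoter, and the part of promoter strength in the other results was not tested.

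Enzymes between pyruvate and acetate were called in both directions, with 6 of 16 genes of alcohol and aldehyde dehydrogenases and pyruvate decarboxylases higher and 7 lower. The list median was -0.11 beside -0.06 over all genes, of which 21.4% were called higher and 29.4% lower. PDC1, the main pyruvate decarboxylase, had 12.46, 12.54 and 12.50 in IRAK2 cells, 13.62, 13.58 and 13.54 in IRAK4 cells and 12.89, 12.90 and 12.85 in Control cells (-1.08 ± 0.17). ALD3, a cytosolic stress-induced aldehyde dehydrogenase, was lower by more, with 7.63, 7.63 and 7.51 in IRAK2 cells against 9.92, 10.18 and 10.11 in IRAK4 cells (-2.48 ± 0.27). ALD4 (0.02 ± 0.10) and ALD6 (0.23 ± 0.23) were not called. ALD6 was called higher under 3 of 17 alternatives, namely array weights, the 6 arrays alone, and without IRAK1 replicate 1. Of 15 genes of the TCA cycle 5 were called lower and 1 higher (LSC2, 0.39 ± 0.14, lost under 4 of 17 alternatives), led by SDH2 (-0.81 ± 0.10) and KGD2 (-0.76 ± 0.12), subunits of succinate and ketoglutarate dehydrogenase. The count of lower TCA genes was 8 without IRAK1 replicate 1, and 29.4% of all genes were called lower.

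Chaperone genes of the Hsf1 group were mostly higher in IRAK2 than in IRAK4. Of 30 measured, 20 were called higher and 6 lower (median 0.44). The median difference from Control was 0.71 in IRAK2 and 0.35 in IRAK4, so the list was above Control in both groups. SSA2, a constitutive cytosolic Hsp70, had 13.15, 13.24 and 13.13 in IRAK2 cells, 11.38, 11.57 and 11.42 in IRAK4 cells and 12.48, 12.48 and 12.40 in Control cells (1.72 ± 0.07, 3.29-fold higher, adjusted p = 5.03e-10). The 3 groups formed separate bands, with Control between the kinases.

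BTN2, which collects misfolded proteins into deposits, had 11.29, 11.18 and 11.08 in IRAK2 cells, 9.39, 9.28 and 9.42 in IRAK4 cells and 9.39, 9.38 and 8.91 in Control cells (1.82 ± 0.18, 3.54-fold higher). Here the IRAK4 arrays overlapped with Control and the IRAK2 arrays stood apart from both. SSA4, the strictly inducible Hsp70, had 10.63, 10.70 and 10.43 in IRAK2 cells, 9.43, 9.44 and 9.53 in IRAK4 cells and 8.24, 8.34 and 8.36 in Control cells (1.12 ± 0.11), so both kinases lay above Control and IRAK2 higher. SSA3, another inducible Hsp70 gene, ran the other way, with 9.87, 9.67 and 9.73 in IRAK2 cells, 11.49, 11.07 and 11.37 in IRAK4 cells and 9.38, 9.27 and 9.02 in Control cells (-1.55 ± 0.30). SSA1 differed by 0.88 ± 0.10, the Hsp90 genes HSC82 and HSP82 by 0.91 ± 0.07 and 0.55 ± 0.13, and the Hsp90 cofactor HCH1 by 1.35 ± 0.11. The mitochondrial chaperones HSP78 (0.04 ± 0.11) and MDJ1 (0.02 ± 0.09) were not called, and the gene of the regulator HSF1 differed by -0.23 ± 0.08 with its call lost under 5 of 17 alternatives.

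Other folding systems did not follow as a group. None of the 8 genes of the CCT chaperonin, which folds actin and tubulin, was called (0 of 8, median -0.07, from -0.22 to 0.14). Of 27 genes of the unfolded protein response and of folding in the endoplasmic reticulum 5 were called higher and 5 lower. The shares of all genes were 21.4% higher and 29.4% lower. KAR2, the Hsp70 of that compartment, had 12.18, 12.14 and 12.01 in IRAK2 cells, 11.33, 11.30 and 11.67 in IRAK4 cells and 11.60, 11.43 and 11.30 in Control cells (0.68 ± 0.11), whereas the disulfide isomerase PDI1 had 11.54, 11.64 and 11.62 in IRAK2 cells, 12.24, 12.36 and 12.32 in IRAK4 cells and 11.73, 11.83 and 11.83 in Control cells (-0.71 ± 0.08). The others called higher were the translocon subunits SSS1 (1.02 ± 0.08) and SBH1 (0.61 ± 0.08) and the KAR2 exchange factors LHS1 (0.79 ± 0.13) and SIL1 (0.33 ± 0.12, lost under 4 of 17 alternatives). The others called lower were the ubiquitin ligase HRD1 (-0.81 ± 0.08), ROT1 (-0.49 ± 0.08), the sensor IRE1 (-0.39 ± 0.12) and ULI1 (-0.39 ± 0.13), these last each lost under 2 of 17 alternatives.

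Of 36 proteasome genes 13 were called lower and 5 higher (median -0.14), beside 29.4% lower and 21.4% higher of all genes. The catalytic subunit PUP1 (-0.75 ± 0.08) and the ubiquitin receptor RPN10 (-0.53 ± 0.09) were lower. Those called higher were SEM1 (1.11 ± 0.17), the proteasome adaptor ECM29 (0.69 ± 0.09), PRE1 (0.37 ± 0.09), RPN8 (0.28 ± 0.07) and RPN11 (0.24 ± 0.07, lost under 3 of 17 alternatives), and RPN4, the transcription factor of proteasome genes, was not called (0.02 ± 0.10).

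Antioxidant and osmotic genes were called in both directions. Of 31 genes of oxidative stress defence 14 were called lower and 5 higher. The shares of all genes, for this and the osmotic list below, were 29.4% lower and 21.4% higher. TSA2, the inducible peroxiredoxin, had 5.92, 6.13 and 6.33 in IRAK2 cells against 8.52, 8.92 and 8.10 in IRAK4 cells (-2.39 ± 0.57), and the glutathione transferase GTT1 differed by -1.46 ± 0.14. Higher in IRAK2 were CTA1, the old yellow enzyme OYE2 (11.05, 11.06 and 11.11 in IRAK2 cells against 9.99, 9.63 and 9.68 in IRAK4 cells, 1.30 ± 0.14), the thioredoxin TRX1 (0.45 ± 0.08), the thioredoxin reductase TRR1 (0.36 ± 0.12, lost under 2 of 17 alternatives) and the peroxidase DOT5 (0.28 ± 0.10, lost under 5 of 17 alternatives). The count of higher ones was 3 without IRAK2 replicate 3. Among 17 genes of glycerol metabolism and osmotic stress 7 were lower and 1 higher, the glycerol kinase GUT1 (0.65 ± 0.19). GPD1, the glycerol-3-phosphate dehydrogenase of the osmotic response, had 10.21, 10.25 and 10.30 in IRAK2 cells, 12.40, 12.43 and 12.54 in IRAK4 cells and 10.92, 10.92 and 10.77 in Control cells (-2.20 ± 0.09, 4.6-fold lower, adjusted p = 5.03e-10). Its IRAK2 arrays were below Control and its IRAK4 arrays above, and the isoenzyme GPD2 was not called (-0.19 ± 0.19).

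At the plasma membrane, 11 of 15 eisosome genes were called lower and 0 higher (median -0.57). Besides FMP45, its homologue YNL194C differed by -2.32 ± 0.21, and the core eisosome proteins PIL1 and LSP1 by -0.84 ± 0.10 and -0.94 ± 0.10. Of 18 genes of proton pumps 8 were lower and 1 higher, the V-ATPase subunit VMA7 (0.30 ± 0.07). PMA1, the essential plasma membrane pump, had 11.95, 12.00 and 11.76 in IRAK2 cells against 12.52, 12.50 and 12.69 in IRAK4 cells (-0.67 ± 0.14), and HSP30, a stress-induced regulator of PMA1, differed by -1.25 ± 0.26.

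Genes of nutrient kinases and stress regulators were lower in IRAK2 in 17 of 26 cases and higher in 0 (median -0.63). YAK1, the kinase that opposes growth when protein kinase A is inactive, had 8.96, 8.94 and 8.95 in IRAK2 cells, 10.32, 10.43 and 10.41 in IRAK4 cells and 9.18, 9.30 and 9.35 in Control cells (-1.44 ± 0.12, 2.71-fold lower). TPK2, a catalytic subunit of protein kinase A, had 8.86, 8.85 and 8.83 in IRAK2 cells against 10.10, 10.05 and 10.22 in IRAK4 cells (-1.28 ± 0.12), and PDE1, the low-affinity cAMP phosphodiesterase, differed by -1.14 ± 0.12. The high-affinity enzyme PDE2 was not called (-0.03 ± 0.13), except with array weights (-0.22).

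Autophagy and the vacuole were on the same side. Of 32 autophagy genes 21 were called lower and 3 higher (median -0.51). The cargo receptors ATG19 and ATG34 differed by -1.34 ± 0.11 and -1.20 ± 0.12 and the vacuolar lipase ATG15 by -1.53 ± 0.14, while the kinase ATG1 was not called (0.01 ± 0.11). Those called higher were ATG41 (0.81 ± 0.15), the conjugating enzyme ATG10 (0.75 ± 0.12) and ATG5 (0.42 ± 0.13, lost under 2 of 17 alternatives). Of 11 vacuolar proteases and inhibitors 8 were lower and 0 higher (median -0.88). TFS1, the inhibitor of carboxypeptidase Y, had 9.50, 9.63 and 9.61 in IRAK2 cells, 12.13, 12.30 and 12.13 in IRAK4 cells and 9.87, 10.11 and 10.02 in Control cells (-2.61 ± 0.11, 6.09-fold lower), and protease B, PRB1, differed by -1.61 ± 0.09. PAI3, the inhibitor of proteinase A, differed by -2.06 ± 0.34, while PBI2 and the aminopeptidase LAP3 (0.06 ± 0.13) were not called.

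Cell wall genes were lower in IRAK2 in part. Of 30 genes of the cell wall integrity pathway and its targets 18 were lower and 0 higher (median -0.41). SLT2, the mitogen-activated kinase of the pathway, had 9.26, 9.28 and 9.22 in IRAK2 cells, 9.89, 9.89 and 10.11 in IRAK4 cells and 9.59, 9.49 and 9.39 in Control cells (-0.71 ± 0.10). Its targets PIR3 (-1.72 ± 0.23) and PST1 (-1.39 ± 0.13), both wall proteins, and SDP1, a phosphatase acting on Slt2 (-1.68 ± 0.15), were over 2-fold lower. Of 18 mannoproteins 9 were lower and 1 higher. The one called higher was TIP1, with 12.77, 12.49 and 12.46 in IRAK2 cells, 10.31, 10.34 and 10.58 in IRAK4 cells and 12.69, 12.79 and 12.76 in Control cells, and the lowest was SPI1, with 8.99, 9.10 and 9.15 in IRAK2 cells, 11.60, 11.23 and 11.34 in IRAK4 cells and 9.13, 9.08 and 8.89 in Control cells (-2.31 ± 0.16).

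Of 26 genes of the pheromone response 9 were lower and 3 higher (median -0.15), beside 29.4% lower and 21.4% higher of all genes. FAR1, which arrests the cell cycle in mating, differed by -1.0 ± 0.14 and SST2, which switches the G protein off, by -0.85 ± 0.17. Those called higher were PRM4 (1.05 ± 0.09), the G protein subunit STE18 (0.44 ± 0.13) and FIG2 (0.26 ± 0.10, lost under 7 of 17 alternatives). FUS1, a marker of the pathway, was not called with the spread pooled over all groups (0.67 ± 0.39). It was called higher under 4 of 17 alternatives, namely array weights, the 6 arrays alone, their replicate block, and without IRAK1 replicate 1. Without IRAK1 replicate 1 the higher genes of this list numbered 5. Of the 7 a-specific genes MFA1 (0.66 ± 0.15) and MFA2 (0.71 ± 0.21) were called higher and the receptor STE2 lower (-0.31 ± 0.12, lost under 9 of 17 alternatives). Of the 4 α-specific genes MF(ALPHA)2 (-0.35 ± 0.10) and STE3 (-0.54 ± 0.15) were called lower at low values. MF(ALPHA)1, also at low values, differed by -0.51 and was not called, but it was called lower under 3 of 17 alternatives.

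Genes of metal, phosphate and sulfate supply gave mixed pictures. Of 28 genes of the iron regulon 11 were called higher in IRAK2 and 1 lower. FIT3, a wall protein that retains siderophores, had 11.08, 10.86 and 10.74 in IRAK2 cells, 9.39, 9.70 and 9.38 in IRAK4 cells and 11.69, 11.88 and 11.94 in Control cells (1.40 ± 0.32). Its IRAK2 arrays lay between the other groups, and the list median differed from Control by -0.44 in IRAK2 and -0.51 in IRAK4. The copper chaperone ATX1 differed by 1.05 ± 0.18 and the siderophore transporter SIT1 by 0.92 ± 0.10, and AKR1 was the member called lower (-0.44 ± 0.16, lost under 8 of 17 alternatives). The count of lower iron genes was 4 without IRAK1 replicate 1, 5 with array weights and 6 from the 6 arrays alone. Of 16 genes of the zinc regulon 8 were lower, led by the transporter ZRT2 (-0.88 ± 0.12), and IZH4 (0.62 ± 0.16) and IZH2 (0.29 ± 0.09, lost under 2 of 17 alternatives) were higher.

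Of 16 genes of the phosphate regulon 4 were called in each direction, beside 21.4% higher and 29.4% lower of all genes. PHO84, the high-affinity phosphate transporter, had 9.01, 8.54 and 8.80 in IRAK2 cells, 6.74, 6.39 and 6.46 in IRAK4 cells and 8.41, 8.59 and 8.74 in Control cells (2.25 ± 0.60, adjusted p = 0.00634). PHO89, the sodium-phosphate transporter (1.02 ± 0.13), SPL2, a regulator of low-affinity transport (1.51 ± 0.23), and PHM6 (0.42 ± 0.11) were higher too. PHO5, the secreted acid phosphatase, had 7.34, 7.61 and 7.45 in IRAK2 cells against 8.48, 8.44 and 8.52 in IRAK4 cells (-1.02 ± 0.13), and its relative PHO11 (-0.41 ± 0.13, lost under 2 of 17 alternatives), the phosphatase PHM8 (-1.46 ± 0.28) and the transcription factor PHO4 (-0.37 ± 0.08) were lower too. PHO5 and PHO11 belong to a family of close sequence, so that cross-hybridisation between their probes was not tested.

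Of 29 genes of sulfate assimilation and methionine 11 were lower and 5 higher. Besides SUL1 the higher ones were MMP1, a permease of S-methylmethionine (1.30 ± 0.14), and the assimilation genes MET14 (0.60 ± 0.13), MET16 (0.49 ± 0.10) and MET22 (0.47 ± 0.08), while the second sulfate permease SUL2 was not called (-0.06 ± 0.09). The methionine synthase MET6 had 11.75, 11.80 and 11.70 in IRAK2 cells against 12.73, 12.75 and 12.74 in IRAK4 cells (-0.99 ± 0.09). INO1, the inositol-3-phosphate synthase, had 11.76, 11.93 and 11.87 in IRAK2 cells, 10.28, 10.17 and 10.26 in IRAK4 cells and 12.11, 11.80 and 11.91 in Control cells (1.62 ± 0.27, 3.07-fold higher). It led a phospholipid list of 17 genes with 3 higher, the others being INM1 (0.59 ± 0.12) and CHO2 (0.36 ± 0.13, lost under 4 of 17 alternatives), and 6 lower. The shares of all genes were 21.4% higher and 29.4% lower. Of 26 ergosterol genes 12 were lower, led by ERG25 (-0.90 ± 0.14), and 3 higher, ERG28 (1.01 ± 0.11), ERG26 (0.82 ± 0.11) and ERG8 (0.31 ± 0.12, lost under 5 of 17 alternatives).

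Amino acid genes under Gcn4 split into 13 higher and 7 lower of 51 (median 0.05), beside 21.4% higher and 29.4% lower of all genes. TRP4 of tryptophan synthesis (0.98 ± 0.11) and the cytosolic branched-chain aminotransferase BAT2 (0.95 ± 0.16) were the highest, and CPA1 of arginine synthesis (-0.88 ± 0.10) and LYS9 of lysine synthesis (-0.86 ± 0.13) the lowest. Outside that list, CHA1, the serine and threonine deaminase, had 6.84, 6.94 and 6.89 in IRAK2 cells, 8.95, 9.11 and 9.40 in IRAK4 cells and 6.97, 6.93 and 6.89 in Control cells (-2.27 ± 0.36, 4.81-fold lower). Its activator gene CHA4 was not called (0.06 ± 0.07), except after quantile normalization (0.17). CHA1 stood in a list of 13 genes of serine, threonine and glycine with 4 lower and 0 higher, the others being the hydroxymethyltransferase SHM2 (-1.01 ± 0.16), the glycine cleavage gene GCV1 (-0.85 ± 0.26) and the threonine aldolase GLY1 (-0.35 ± 0.09). This count stood near the 29.4% called lower of all genes.

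Of 24 genes under nitrogen catabolite repression 8 were lower and 4 higher. The transaminase UGA1 (-0.87 ± 0.11) and the activator GAT1 (-0.81 ± 0.10) were lower. The permease AGP1 (0.86 ± 0.21) and the glutamate dehydrogenase GDH2 (0.57 ± 0.15) were higher, as were MEP3 (0.33 ± 0.12) and DAL3 (0.36 ± 0.14), whose calls were lost under 4 and 8 of 17 alternatives. The lower count of this list was 5 without IRAK2 replicate 1, without IRAK2 replicate 2 or after median centring, and the higher count was 7 without IRAK1 replicate 1, beside 29.4% lower and 21.4% higher of all genes. Of 18 genes of purine synthesis 6 were lower and 0 higher, and of 15 genes of thiamine and vitamin B6 7 were lower and 0 higher, led by THI6 (-0.61 ± 0.07). The purine genes called lower numbered 11 without IRAK1 replicate 1. The thiamine and vitamin B6 genes called lower numbered 3 under quantile normalization, 3 without IRAK2 replicate 1 and 4 without IRAK4 replicate 1 or replicate 2.

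Genes for making ribosomes were higher in IRAK2 than in IRAK4 by small amounts. Of 101 genes of ribosome biogenesis 35 were called higher and 0 lower, with a median of 0.32, and the median difference from Control was -0.02 in IRAK2 and -0.37 in IRAK4. UTP4 of the small-subunit processome had 9.36, 9.07 and 9.15 in IRAK2 cells, 8.36, 8.32 and 8.36 in IRAK4 cells and 8.99, 8.87 and 9.29 in Control cells (0.85 ± 0.20), and UTP23 differed by 1.03 ± 0.23. The core box C/D proteins NOP1 and NOP58 were not called (0.00 ± 0.12 and 0.00 ± 0.14). The count of called genes moved with the arrays used, to 20 without IRAK2 replicate 1, 18 without IRAK4 replicate 2 and 62 without IRAK1 replicate 1. The list median stayed at 0.32 without IRAK1 replicate 1, and the cause of these moves was not tested. Of 27 subunits and factors of RNA polymerases I and III 12 were higher, led by RPC31 (0.90 ± 0.17), and 1 lower, RRN7 (-0.33 ± 0.13, lost under 8 of 17 alternatives).

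Of 127 genes of cytosolic ribosomal proteins 83 were called higher and 0 lower (median 0.35), and the median difference from Control was 0.10 in IRAK2 and -0.27 in IRAK4. RPS10B had 11.07, 11.27 and 11.22 in IRAK2 cells, 10.09, 10.16 and 10.14 in IRAK4 cells and 10.87, 10.64 and 10.85 in Control cells (1.06 ± 0.13). RPL41A, which encodes the smallest of these proteins, had 6.88, 7.44 and 6.67 in IRAK2 cells, 4.81, 4.96 and 5.27 in IRAK4 cells and 5.93, 6.07 and 6.09 in Control cells (1.98 ± 0.19). Its values lay in the lower part of the scale. Short genes as a set were higher in IRAK2, as described further on, and the part of length in its difference was not tested. RPL7A (0.01 ± 0.06) and RPS4B (-0.01 ± 0.07), both near the top of the scale, were not called. Many of these genes have near-identical copies, so the values of single members are uncertain. Of 66 genes of mitochondrial ribosomal proteins 34 were higher and 2 lower (median 0.30), with MRP2 at 10.69, 10.78 and 10.92 in IRAK2 cells against 9.57, 9.71 and 9.85 in IRAK4 cells (1.08 ± 0.10). The 2 lower ones were MRP8 (-0.77 ± 0.09) and MRPL4 (-0.32 ± 0.11, lost under 6 of 17 alternatives).

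The difference between IRAK2 and IRAK4 also moved with gene length, taken as the span from start to stop codon with introns included. The median difference was 0.23 in the 243 genes of up to 300 bases and 0.30 in the 294 of 301 to 450 bases, and -0.16 in the 461 genes of over 3000 bases. Among the 301 to 450 base genes 50.3% were called higher, against 9.5% of those over 3000 bases. The median of 537 short genes (up to 450 bases) minus that of 1519 long genes (over 1800 bases), each as deviation from the gene's mean over all arrays, was 0.22, 0.28 and 0.31 in IRAK2 arrays, -0.11, -0.09 and -0.23 in IRAK4 arrays and 0.04, 0.04 and 0.09 in Control arrays. With this trend removed, an alternative chosen after seeing the data, 71 cytosolic ribosomal protein genes were still called higher and 2 were called lower, and 26 mitochondrial ones were called higher and 3 lower. The list medians were then 0.26 for the cytosolic and 0.11 for the mitochondrial ribosomal proteins, against 0.35 and 0.30 as deposited. IRAK4 replicate 3 was the farthest of the IRAK4 arrays, and without it 1156 genes in all were called higher and 1310 lower. The part of length in these results was not tested further.

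**Figure D5:**
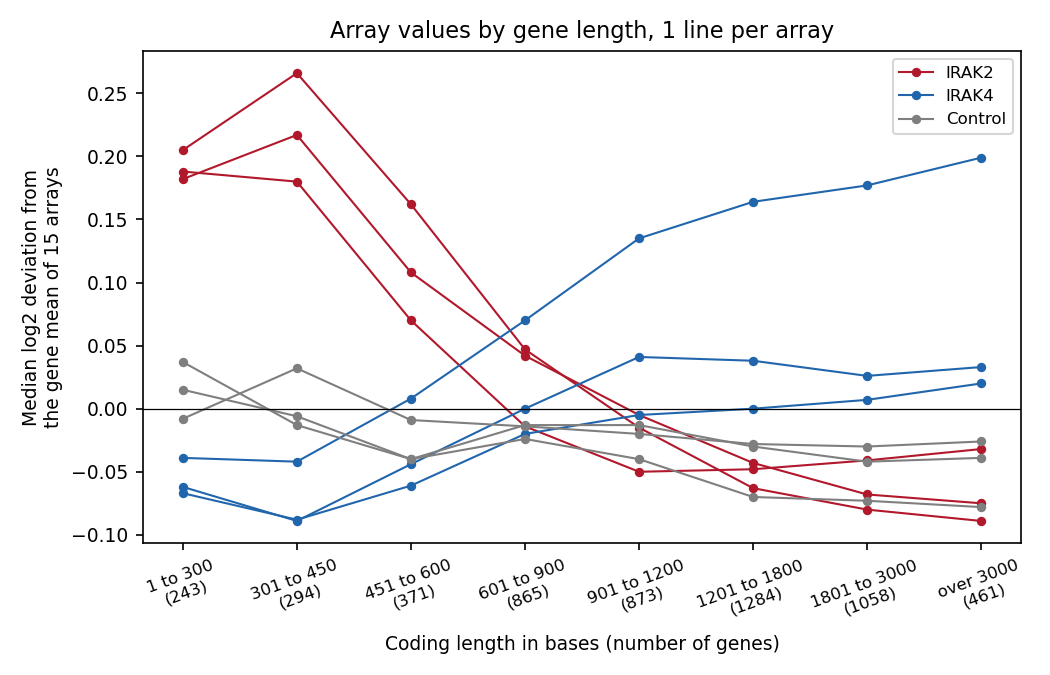
Median log2 deviation from the gene mean of the 15 arrays (vertical axis) in 8 classes of gene length (horizontal axis, number of genes in brackets), 1 line per array. The IRAK2 arrays lie highest among genes of up to 450 bases, where the IRAK4 arrays lie below 0.

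Lists made of short genes moved most when the trend was removed. Of 14 ATP synthase genes, which build the mitochondrial rotary enzyme, 5 were called higher as deposited, namely ATP19 (0.58 ± 0.09), ATP18 (0.53 ± 0.07), ATP20 (0.42 ± 0.09), TIM11 (0.42 ± 0.12, lost under 2 of 17 alternatives) and ATP15 (0.26 ± 0.07). The subunit called lower was ATP3 (-0.45 ± 0.15, lost without IRAK4 replicate 3). With the trend removed 0 ATP synthase genes were called higher and 1 lower. In the respiratory chain 10 of 27 genes were lower, and the 3 called higher were cytochrome c, CYC1 (0.48 ± 0.11), and the cytochrome oxidase subunits COX8 (0.27 ± 0.10) and COX7 (0.24 ± 0.09), the last 2 lost under 6 of 17 alternatives each. With the trend removed 0 genes of the chain were higher and 15 lower, and the list median was -0.29, against -0.10 as deposited. As deposited, 29.4% of all genes were called lower and 21.4% higher. Of 9 histone genes HHF1 (0.36 ± 0.13), HHT1 (0.36 ± 0.13) and HTZ1 (0.35 ± 0.11) were called higher as deposited and 0 with the trend removed. Their calls were lost under 5, 4 and 4 of 17 alternatives, while the higher histone genes numbered 5 without IRAK1 replicate 1. The linker histone HHO1 was called lower in both cases (-0.71 ± 0.12 as deposited). The calls of MFA1, MFA2, STE18, SBH1, TRX1, PHM6 and VMA7 were also lost with the trend removed. The oxidative stress genes called higher numbered 3 after the removal, and of the 60 Msn2/Msn4 targets 55 were called lower.

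Cyclin genes were lower in IRAK2. Of 18 G1 cyclins and SBF targets 12 were called lower and 0 higher (median -0.45), with a median difference from Control of -0.27 in IRAK2 and 0.18 in IRAK4. CLN2, a G1 cyclin, had 8.12, 7.82 and 8.02 in IRAK2 cells, 9.63, 9.75 and 9.74 in IRAK4 cells and 8.57, 8.44 and 8.49 in Control cells (-1.72 ± 0.11, 3.3-fold lower, adjusted p = 4.29e-08). The groups were ordered with IRAK2 lowest, Control between and IRAK4 highest, without overlap. CLN1 (-1.34 ± 0.08) and the Pho85 cyclins PCL1 (-1.61 ± 0.08) and PCL2 (-1.41 ± 0.12) were over 2-fold lower, and the transcription factors SWI4 (-0.03 ± 0.17) and MBP1 (0.02 ± 0.12) were not called.

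Of 19 genes of B-type cyclins and mitosis 13 were lower and 1 higher, the myosin gene MYO1 (0.61 ± 0.09). The mitotic cyclin CLB1 had 9.24, 9.36 and 9.29 in IRAK2 cells, 10.50, 10.43 and 10.61 in IRAK4 cells and 9.43, 9.29 and 9.22 in Control cells (-1.22 ± 0.10), and CLB2 differed by -1.03 ± 0.14. Of 13 genes of ribonucleotide reductase and DNA damage 9 were lower and 0 higher, with the kinase DUN1 at -0.92 ± 0.10 and the reductase subunits RNR2 and RNR3 at -0.90 ± 0.13 and -0.65 ± 0.13. DNA replication genes were called in both directions, 8 of 37 higher, led by RFA3 (0.86 ± 0.14) and DPB2 (0.64 ± 0.09), and 4 lower, POL2 (-0.37 ± 0.09), MCM2 (-0.35 ± 0.08), CDC6 (-0.34 ± 0.11) and RFC1 (-0.29 ± 0.11). The calls of CDC6 and RFC1 were lost under 4 and 7 of 17 alternatives. The replication genes called higher numbered 5 without IRAK4 replicate 1, and of all genes 21.4% were higher and 29.4% lower. Shares of cells in each phase of the cycle were not measured, and in a bulk culture fewer cells in a phase and less RNA per cell cannot be told apart.

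Of 24 genes of meiosis and sporulation 6 were higher and 8 lower, beside 21.4% higher and 29.4% lower of all genes. Only 3 of the meiosis genes were higher without IRAK2 replicate 3, IRAK4 replicate 1 or IRAK4 replicate 2. Their lower count was 5 without IRAK2 replicate 1 and 3 with the filter on low values. SSP1, needed for the prospore membrane, had 7.35, 7.66 and 7.74 in IRAK2 cells against 5.82, 5.70 and 6.19 in IRAK4 cells (1.68 ± 0.21), and RIM4, an RNA-binding regulator of meiosis, had 8.64, 8.18 and 8.47 in IRAK2 cells against 9.52, 9.57 and 9.74 in IRAK4 cells (-1.18 ± 0.13). Among 19 tRNA synthetases, which load amino acids onto tRNA, 5 were higher, ALA1 (0.23 ± 0.07), CDC60 (0.37 ± 0.07), KRS1 (0.39 ± 0.09), ILS1 (0.44 ± 0.09) and WRS1 (0.44 ± 0.07), and 2 were lower, DPS1 (-0.34 ± 0.13, lost under 9 of 17 alternatives) and FRS2 (-0.32 ± 0.09). Translation factors stayed close together, with 2 of 31 higher, TIF11 (0.58 ± 0.08) and SUP45 (0.29 ± 0.09), and 5 lower, GCD11 (-0.40 ± 0.09), TIF4632 (-0.34 ± 0.12, lost under 6 of 17 alternatives), FUN12 (-0.31 ± 0.07), EFT2 (-0.30 ± 0.06) and SUP35 (-0.28 ± 0.08). Without IRAK1 replicate 1 the higher factors numbered 5. The elongation factor TEF2 had 13.79, 13.79 and 13.76 in IRAK2 cells and 13.80, 13.84 and 13.79 in IRAK4 cells and was not called (-0.03 ± 0.07).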

How the data were processed

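Per the labels' protocols, total RNA of each culture was extracted mechanically (RNeasy kit), tested for integrity and hybridised, with a biotin label, to an Affymetrix yeast array. The authors deposited log2 values. Per the submitters' processing notes these came from GCRMA (version not given in the sources used here), which corrects probes for background and sums them up per probe set. Their scale is that of log2 intensities (2.25 to 14.21), and no detection calls were used, so a low value may stand for an absent transcript, and precision is limited by the 3 arrays per group.

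Of 5716 probe sets, 5498 were paired with 1 gene by the platform annotation and 218 were left out. Symbols of 12 genes were updated from the RefSeq gene table of assembly R64. A gene with several probe sets (47 genes) was represented by the set of highest mean over the 15 arrays, giving 5449 genes. For 112 of them the kept set carries a suffix that marks possible matches to several transcripts.

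Values were used as deposited, with no filter. The 5 group means of the 15 arrays entered limma's linear model (version 3.58.1, R 4.3.3, moderated by eBayes), and IRAK2 minus IRAK4 was tested two-sided with Benjamini-Hochberg adjustment over all genes at 0.05. Errors after ± are standard errors of the contrast. The fit was run on simulated data with independent noise of equal spread in all groups. These data held neither the wider spread of IRAK1 nor a trend with gene length, so the run cannot tell how the fit deals with those. Tables and figures were made with Python 3.11.15, pandas 2.3.3 and matplotlib 3.10.9. Levels were not compared between probe sets.

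The comparison, 54 gene lists with their members and 32 gene pairs were chosen with earlier results of these data known. The genes eligible to be named were the 15 highest and 15 lowest differences among called genes whose IRAK2 and IRAK4 arrays do not overlap, from each list up to 4 called members of largest difference and up to 2 uncalled ones of smallest difference, both genes of each pair, and a fixed set of marker, galactose, mating and stress genes (360 genes). Another 61 make up counts of 5 or fewer and were chosen after their values were seen. Not all eligible genes are named, and 1 of the 15 highest is not reported here. Gene length came from the RefSeq table.

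Replicate numbers are shared by the groups, but same-numbered IRAK2 and IRAK4 arrays deviated from their group means with correlations of -0.02, 0.13 and -0.20, so the numbers were not taken to pair the cultures. Alternatives were median centring, quantile normalization, a filter on a mean log2 value under 5, the mean of several probe sets, limma's trend and robust options, array weights, the 6 arrays alone, the fit without IRAK1 replicate 1, a replicate block with 15 or 6 arrays, leaving out each of the 6 arrays, a 2-fold limit, and removal of the trend with gene length.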

Additional observations from a re-analysis of the deposited data

How the results depend on the processing

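As deposited, 2770 genes were called. The count was 2850 after median centring, 2821 after quantile normalization, 2719 of 5194 with the filter on low values, 2777 with the mean of probe sets, 2768 with trend and robust options, 3674 with array weights, 3177 from the 6 arrays alone, 3278 without IRAK1 replicate 1 and 2639 with the length trend removed. Without each IRAK2 or IRAK4 array it was 2356 to 2482, of which 950 to 1156 were higher and 1310 to 1510 lower in IRAK2. The share called higher was 42.1% as deposited, 49.3% after centring and 50.5% after quantile normalization, with 2612 and 2540 of the calls shared. A limit of 2-fold left 368 genes (138 higher, 230 lower). With the replicate block the counts were 2732 (15 arrays) and 3080 (6 arrays). The array weights did not fully converge.

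Of 300 called genes eligible to be named, 244 kept their call and direction in every setting and 56 lost the call in at least 1. With the length trend removed, the differences of ATP15, COX7 and COX8 changed sign, to -0.14, -0.16 and -0.08. List counts that moved by over 1.5 times included ribosome biogenesis (35 called higher as deposited, 18 to 64 elsewhere), purine synthesis (6 lower, up to 11), sulfate and methionine (5 higher, up to 10) and the lower meiosis genes (8, against 3 with the low filter). The cause of these moves was not tested, except that fewer arrays or genes enter some of them.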

Other observations

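Many of the larger differences lay outside the described groups. Of the 368 genes called with at least a 2-fold difference, 154 belonged to a gene list and 214 to none. Among 499 tested reading frames without a gene name, 93 were called higher in IRAK2 (20 at least 2-fold) and 144 lower (23 at least 2-fold), with a median difference of -0.03 on the log2 scale. These shares, 18.6% higher and 28.9% lower, stood beside 21.4% and 29.4% over all genes.

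Some of the genes that differed were chromosomal neighbours. Of 5017 pairs of adjacent tested genes, 16 had both members called at least 2-fold lower in IRAK2, 7 had both at least 2-fold higher and 7 had members in opposite directions. The lower pairs held 13.5% of the 230 genes at least 2-fold lower, and the higher pairs 9.4% of the 138 genes at least 2-fold higher. Of all genes 4.22% were called at least 2-fold lower and 2.53% at least 2-fold higher. The shares expected from position alone were not computed, so these values do not show clustering. HBT1 and FMP45 differed by -2.85 and -3.73, and the autophagy receptor genes ATG34 and ATG19 stood beside PHM7, with -1.20, -1.34 and -2.96. GPD1 and its neighbour GPM2, a phosphoglycerate mutase homologue, differed by -2.20 and -1.53. The proteinase A inhibitor gene PAI3 and the hydrophilin gene SIP18 differed by -2.06 and -1.95. Among the higher pairs were YIG1 and CSM4 (2.26 and 2.09) and the citrate synthase gene CIT3 with PDH1 (1.69 and 2.00). These neighbours were chosen after their values were seen, and adjacent reading frames can share probes or transcripts, which was not tested.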
